A study of Mus musculus with 6 samples.

Results

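The insulin, insulin-like growth factor (IGF) and glucose transport genes described here are Insr, Irs1, Irs2, Akt2, Pik3r1, Slc2a1, Slc2a4, Igf1, Igf2 and Igf1r. They were taken by name, as every Affymetrix probe set whose annotated symbol is exactly one of the 10. This gave 28 of the 45037 probe sets on the arrays, with at least 1 for each of the 10 genes. RNA was measured in mouse mesenchymal stem cells, a commercial stromal cell that can become a fat, bone or cartilage cell. All 6 cultures were grown in α-MEM with 5% serum and received insulin at 5 µg/ml, rosiglitazone and dexamethasone at 1 µM each and IBMX, which blocks phosphodiesterases, at 100 µM, last given 48 h before the exposure. Insulin, the ligand of the pathway described here, was thus given to both arms, and no culture without this addition is part of the comparison. How much insulin remained at the exposure is not known. In each of 3 independent experiments 1 culture was exposed for 2 h to broadband terahertz pulses of 35 fs, centred near 10 THz, at 1 kHz and 1 mW/cm2, and 1 control culture stood beside it, both at 26 to 27 °C. The cells share 1 commercial source, so p-values speak only for these cultures. They measure how far the 3 differences within pairs disagree, with the error drawn toward that of all probe sets. The same error serves the comparisons of experiments.

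Insulin and the IGFs bind related receptor tyrosine kinases, which pass the signal through IRS adaptors to phosphoinositide 3-kinase (PI3K) and then to the kinase AKT. In fat cells AKT2 moves the transporter GLUT4 from internal vesicles to the cell surface, while GLUT1 gives a basal entry of glucose that depends less on insulin. Much of this control acts on protein and lipid signals, which RNA levels do not show.

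The values are log2 levels per probe set, so a difference of 1 is a doubling. Levels of different probe sets are not comparable as amounts of RNA, so differences are taken only within a probe set. The median probe set, marker means and the brightest probe set of a gene serve only as rough guides to signal. Normalization had made the arrays nearly equal in distribution, so a difference common to every transcript is lost. Array medians still ran from 4.82 in control culture 3 to 4.87 in irradiated culture 2. A total of 7 of the 8 measured fat-cell markers and 8 of the 9 measured stromal markers lay at or above the level of the median probe set (4.84), and so did 9 of 10 macrophage and leukocyte markers. The brightest of these 3 lists were Fabp4 (mean level 14.41), Col1a2 (13.89) and the macrophage and leukocyte marker Lyz2 (14.21). Leptin (Lep, 2.81), the stromal marker Thy1 (3.84) and the macrophage marker Cd163 (4.54) lay below the level of the median probe set. Skeletal muscle markers, which matter because muscle also uses GLUT4, lay at or above it in 5 of 10, at means of 5.065 to 5.815. Endothelial markers did so in 2 of 10. These counts take a gene by its brightest probe set. Taken so, 11730 genes other than the 10 members also lay at or above it, of 18193 genes in all. Fewer cells of a type and less RNA per cell cannot be told apart in such bulk samples. Differences between arms are irradiated minus control, from limma with the experiment as a block; the error given is the fit's SE, and n = 3 pairs. Differences between experiments compare the 2 cultures of one occasion with the 2 of another in the same fit. An occasion cannot be told apart from anything else that changed with it.

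The clearest difference in this gene set lay between occasions, in Slc2a1, and not between arms. The GLUT1 transcript was about 2-fold higher in experiment 3 than in experiment 1 by each of its 3 probe sets. Between the arms none of the 10 genes passed the test. Slc2a4, the GLUT4 gene, was lower in the irradiated culture in all 3 pairs by both of its probe sets, and this did not pass the test either. Irs2 and one Insr probe set differed between experiments 1 and 3 in opposite directions, and only the latter passed.

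**Figure D1:**
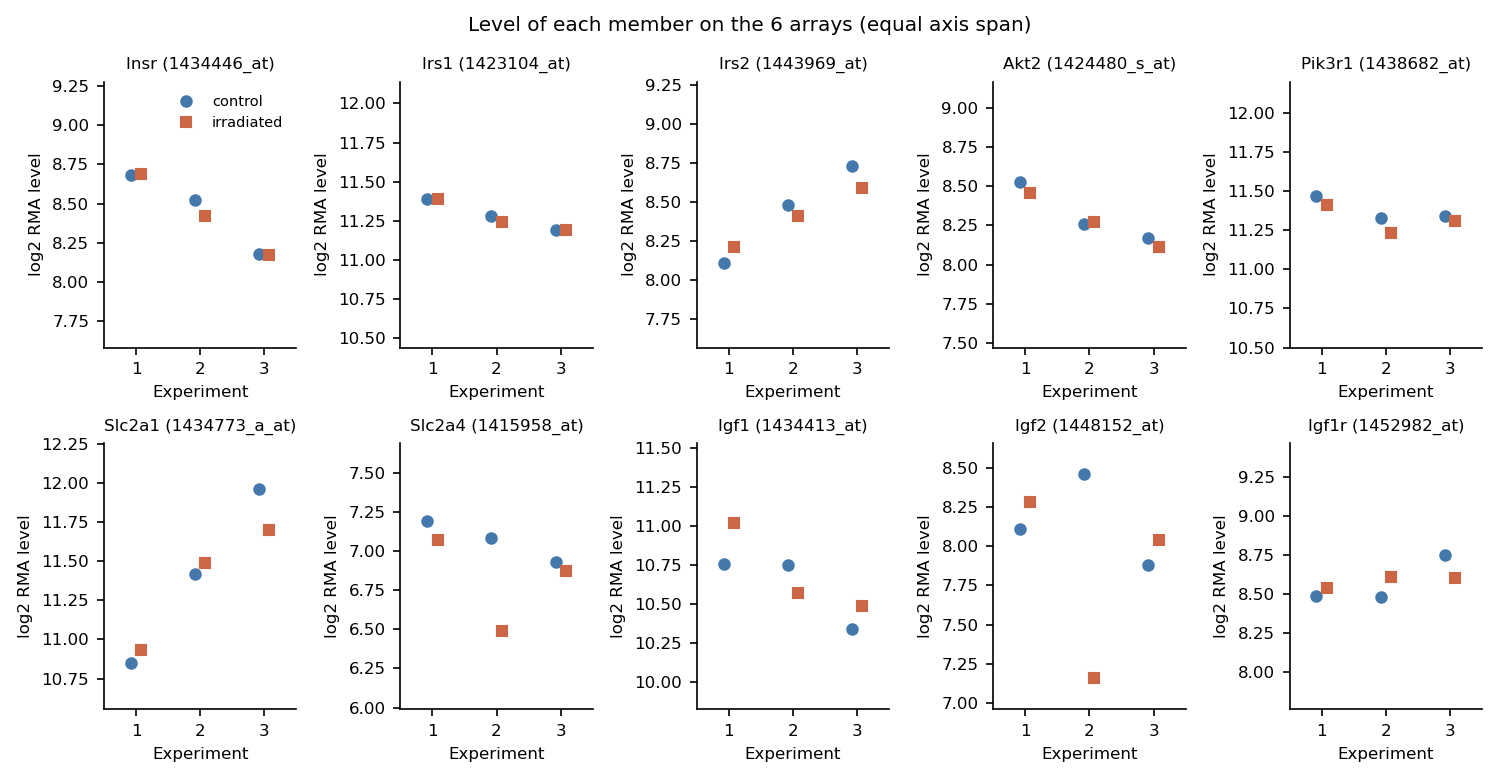
Log2 level of each of the 10 genes on the 6 arrays, by its probe set of highest mean level, against the experiment. Circles are control and squares irradiated cultures, and all panels span the same range of log2 units. The cultures of experiment 1 had Slc2a1 levels of 10.85 and 10.93 and those of experiment 3 had 11.96 and 11.7, while irradiated culture 2 was the lowest for Igf2 (7.16) and Slc2a4 (6.49).

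Between irradiated and control cultures 0 of the 28 probe sets passed the test, as did 0% of all 45037 (limma, adjusted p under 0.05). At an unadjusted p under 0.05 it was 1 of the 28, against 4.97% of all, and the other limma settings tried also gave 0 past the adjusted threshold. Negative differences were seen in 21 of the 28 probe sets and positive ones in 6, against 21458 and 23007 of all 45037. The 28 are repeated readings of 10 genes. With 1 probe set a gene, 8 of 10 genes were negative with a median of -0.037. Over 18193 genes 8752 were negative and the median was 0.0033. The medians of the 10 genes in pairs 1, 2 and 3 were 0.03, -0.085 and -0.045, so the first pair lay on the other side of 0. A total of 4 of the 28 probe sets had the same sign in all 3 pairs, where 23.8% of all probe sets do. For 27 of the 28 the 95% interval excluded changes of 1.5-fold or more either way, and the exception was Igf2 1448152_at. This is near the share over all probe sets, where it held for 43754 of 45037.

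**Figure D2:**
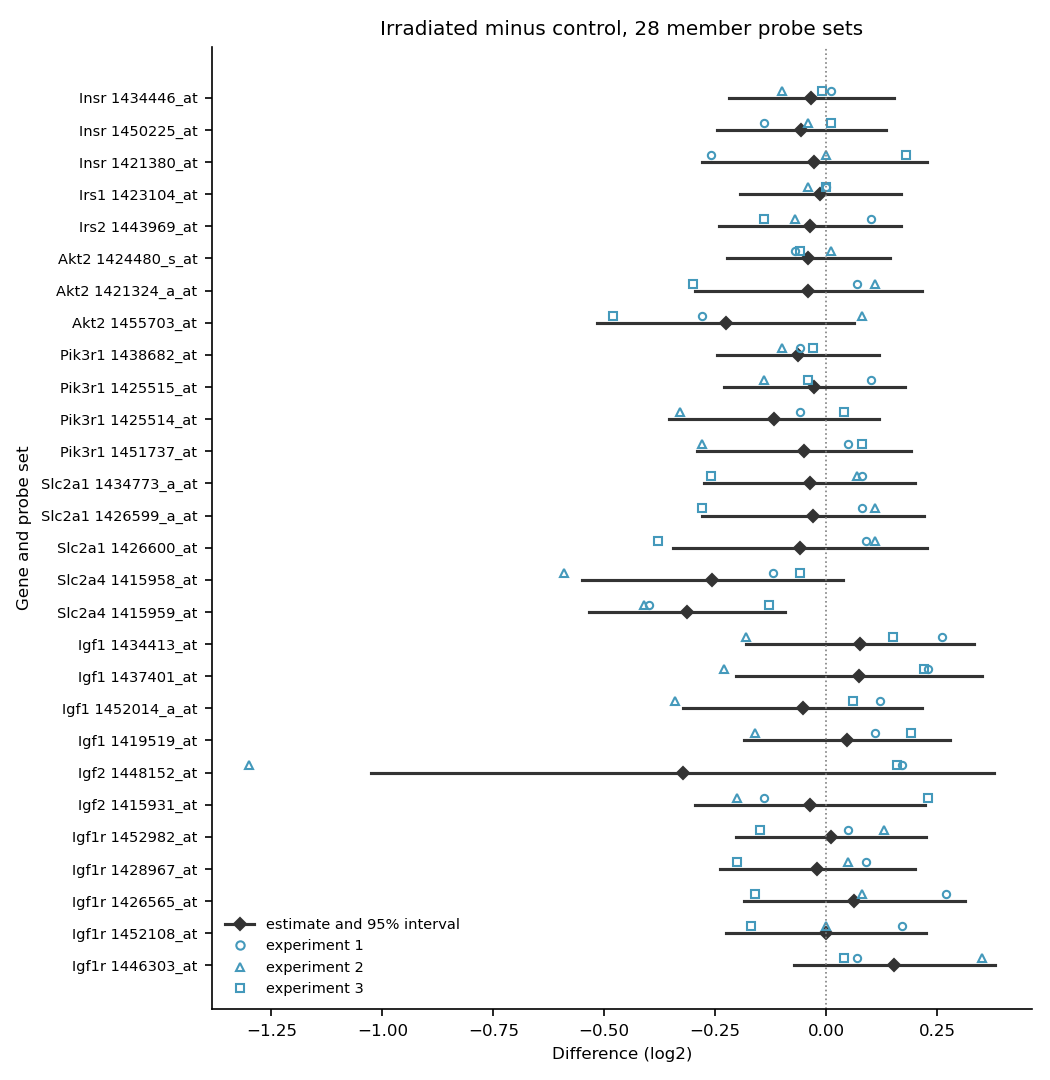
Irradiated minus control differences (log2) of the 28 probe sets, with limma's estimate and 95% interval (diamond and bar) and the difference within each of the 3 experiments (open symbols). The intervals of all but one cross 0. The exception is Slc2a4 1415959_at at -0.31, whose adjusted p is 0.929, and the widest interval belongs to Igf2 1448152_at.

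Igf1 encodes IGF-1, the growth factor that stromal cells, fat cells and macrophages release. By 1434413_at its level was 10.76, 10.75 and 10.34 in control cultures 1, 2 and 3 and 11.02, 10.57 and 10.49 in the irradiated ones. The irradiated culture was higher in experiments 1 and 3 and lower in experiment 2, and the arms overlapped. All 4 Igf1 probe sets showed this same order of signs, with estimates between -0.053 and 0.077 (limma adjusted p from 0.966 to 0.973). Macrophage and leukocyte markers averaged 9.97 to 10.16 in controls and 10.13 to 10.17 in irradiated cultures. Between arms 8 of the 10 were positive, where 9183 of all 18193 genes were. The part of these markers in the Igf1 values was not tested.

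The Igf1 probe sets did not give the same picture of the occasions. By 1437401_at experiment 3 was lower than experiment 1 by 0.60 in controls and by 0.61 in irradiated cultures, an estimate of -0.61 ± 0.14 (SE; limma adjusted p = 0.086). By 1434413_at it was -0.47 ± 0.13 (limma adjusted p = 0.124). By 1452014_a_at, however, it was 0.01 ± 0.14, and by 1419519_at -0.18 ± 0.12. None of the 4 passed, and which transcripts each probe set reads was not examined. With an intensity trend, an alternative setting of the test, 1434413_at and 1437401_at passed (limma adjusted p = 0.019 and 0.010), and among brighter probe sets alone 1437401_at did (0.046), within ranges over the alternatives of 0.019 to 0.513 and 0.010 to 0.473.

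Igf2 encodes IGF-2, a growth factor of fetal tissues and of muscle and stromal precursors. By 1448152_at its level was 8.11, 8.46 and 7.88 in controls and 8.28, 7.16 and 8.04 in irradiated cultures. A single array stood apart, that of irradiated culture 2, which was 1.3 below its own control. The other pairs differed by 0.17 and 0.16 in the opposite direction. The estimate was -0.32 ± 0.29 (95% interval -1.02 to 0.38, limma adjusted p = 0.944), and without replicate 2 it turned to 0.165 (adjusted p = 0.895). The other Igf2 probe set, 1415931_at, lay far below the median probe set, at 2.92 to 3.39, and held no such gap in experiment 2, with pair differences of -0.14, -0.20 and 0.23.

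Insr encodes the insulin receptor. By 1434446_at its level was 8.68, 8.52 and 8.18 in controls and 8.69, 8.42 and 8.17 in irradiated cultures. The arms of each experiment lay within 0.1 of each other, and the estimate between arms was -0.033 ± 0.076 (limma adjusted p = 0.976). Between occasions Insr fell by 0.51 ± 0.09 from experiment 1 to experiment 3 (1.42-fold lower, limma adjusted p = 0.049), with differences of -0.50 in controls and -0.52 in irradiated cultures. This call is marginal. It passed in 3 of its 13 alternatives. It ended under quantile normalization (-0.49, adjusted p = 0.053), median centring (-0.50, adjusted p = 0.054) and a robust prior (adjusted p = 0.053). It also ended with any 1 array left out, as every other call on the arrays did, so that setting cannot decide it. The mean of the 3 Insr probe sets was at -0.16 ± 0.08 (adjusted p = 0.344), a setting added after the data were seen, and adjusted p over all its alternatives ran from 0.0061 to 0.446. The other Insr probe sets, 1450225_at and 1421380_at, lay below the median probe set and were at -0.095 ± 0.096 and 0.13 ± 0.13 for the same comparison.

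Igf1r encodes the IGF-1 receptor, the close relative of the insulin receptor. By 1452982_at its level was 8.49, 8.48 and 8.75 in controls and 8.54, 8.61 and 8.60 in irradiated cultures, and the arms overlapped. The estimate between arms was 0.01 ± 0.09, and the 5 probe sets ran from -0.02 to 0.15. The highest was 1446303_at, dim at 3.61 to 3.96, where the pairs differed by 0.07, 0.35 and 0.04 and the estimate was 0.15 ± 0.09 (limma adjusted p = 0.929). In 4 of the 5 probe sets control culture 3 was the highest of the 6 arrays, and the differences of experiment 3 from experiment 1 ran from 0.065 to 0.21, none past the test. The spike-ins added before hybridization were also brightest on that array, with a mean of 11.63 against 11.06 to 11.25 on the others, and the part of that in these values was not tested.

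Irs1 and Irs2 encode the adaptors that join both receptors to PI3K. By its only probe set, 1423104_at, Irs1 stood at 11.39, 11.28 and 11.19 in controls and at 11.39, 11.24 and 11.19 in irradiated cultures. These are the closest pairs of the set, with differences of 0, -0.04 and 0, and the estimate between arms was -0.013 ± 0.074 (95% interval -0.19 to 0.17). Irs2, by 1443969_at, stood at 8.11, 8.48 and 8.73 in controls and at 8.21, 8.41 and 8.59 in irradiated cultures. Its pairs differed by 0.1, -0.07 and -0.14, an estimate of -0.037 ± 0.084. Between occasions Irs2 was higher in experiment 3 than in experiment 1 by 0.5 ± 0.1, in controls by 0.62 and in irradiated cultures by 0.38, and narrowly missed the threshold (limma adjusted p = 0.066). Irs1 was at -0.2 ± 0.09 for the same comparison (adjusted p = 0.303). Irs2 passed in 4 of its 13 alternatives. These were no irradiation term, an intensity trend, brighter probe sets alone and the mean of probe sets (limma adjusted p = 0.038, 0.011, 0.028 and 0.041). The last was added after the data were seen. It averages nothing for Irs2, which has 1 probe set, and the estimate stayed at 0.5. Irs1 passed in none of its 13 alternatives.

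The windows around the start of these adaptor genes and of Slc2a1 are shown because the adaptors had differences of opposite sign between experiments 3 and 1, neither past the test, and Slc2a1 is the transporter that passed. Each holds 250 bases before and 50 after the start in RefSeq annotation (mouse build GRCm38.p6), 5′ to 3′ on the strand of the gene. Irs1 lies at chr1:82291390-82291689 (minus strand), Irs2 at chr8:11008880-11009179 (minus strand) and Slc2a1 at chr4:119108495-119108794 (plus strand). Capitals mark matches, on either strand, to 7 motifs. The TATA box was searched as TATAAA and the CCAAT box by the letters of its name. The GC box was searched as GGGCGG, and the E-box as CACGTG. The core of the hypoxia element was searched as ACGTG, which also lies inside that E-box. The cAMP response element was searched as TGACGTCA, and the insulin response sequence as TGTTTTG.
Irs1: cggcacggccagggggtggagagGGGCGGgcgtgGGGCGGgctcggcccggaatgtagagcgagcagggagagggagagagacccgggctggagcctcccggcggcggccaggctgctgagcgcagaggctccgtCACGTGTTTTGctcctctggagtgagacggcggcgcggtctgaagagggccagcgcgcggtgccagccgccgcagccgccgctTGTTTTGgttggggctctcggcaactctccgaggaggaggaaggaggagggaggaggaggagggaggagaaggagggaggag
Irs2: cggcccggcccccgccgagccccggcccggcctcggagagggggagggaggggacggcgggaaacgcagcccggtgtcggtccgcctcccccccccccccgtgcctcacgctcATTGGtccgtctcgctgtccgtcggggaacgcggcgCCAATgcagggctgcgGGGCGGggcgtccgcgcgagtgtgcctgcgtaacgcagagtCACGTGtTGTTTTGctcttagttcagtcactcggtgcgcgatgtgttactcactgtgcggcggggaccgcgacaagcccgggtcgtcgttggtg
Slc2a1: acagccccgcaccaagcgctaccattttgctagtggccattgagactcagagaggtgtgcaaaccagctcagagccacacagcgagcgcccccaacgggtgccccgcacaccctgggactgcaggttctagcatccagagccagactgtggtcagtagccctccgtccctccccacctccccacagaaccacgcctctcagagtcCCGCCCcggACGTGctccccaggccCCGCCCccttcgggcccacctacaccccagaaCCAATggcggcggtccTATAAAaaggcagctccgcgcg

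Both adaptor windows hold the E-box, found in 7.15% of the 32851 windows of this length, and the insulin response sequence, found in 6.28%. The longest runs of letters they share have 10 bases. One is GTCACGTGTT, around the E-box, and the other is TGTTTTGCTC, which starts with the insulin response sequence. In Irs1 the insulin response sequence overlaps the end of the E-box and occurs again further on, and in Irs2 it starts right after the base that follows the E-box. The Slc2a1 window holds 2 GC boxes on the opposite strand (35.7% of windows), the ACGTG core (19.6%), a CCAAT box (37.4%) and a TATA box (13.6%), and both of the last lie after the annotated start. The cAMP response element (1.79% of windows) is in none of these 3 windows. These are matches of letters only. Windows were found for 8 of the 10 genes, and Insr and Slc2a4 had none in the table.

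Pik3r1 encodes p85α, the regulatory subunit that holds PI3K to the IRS adaptors. By 1438682_at its level was 11.47, 11.33 and 11.34 in controls and 11.41, 11.23 and 11.31 in irradiated cultures. Each irradiated culture was slightly lower than its own control, by 0.06, 0.10 and 0.03, but the arms overlapped and the estimate was -0.063 ± 0.075 (95% interval -0.25 to 0.12). All 4 Pik3r1 probe sets had negative estimates, from -0.12 to -0.027, and in each the pair of experiment 2 was the most negative. No Pik3r1 probe set differed between occasions beyond the test.

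Akt2 encodes the AKT form that carries the insulin signal to GLUT4. By 1424480_s_at its level was 8.53, 8.26 and 8.17 in controls and 8.46, 8.27 and 8.11 in irradiated cultures, an estimate between arms of -0.04 ± 0.08. The probe set 1455703_at gave -0.23 ± 0.12 (95% interval -0.52 to 0.06), with pair differences of -0.28, 0.08 and -0.48, so it was negative in 2 of 3 pairs. Between experiments 3 and 1 the Akt2 probe sets went apart. By 1424480_s_at the difference was -0.36 ± 0.09 (limma adjusted p = 0.113), while 1421324_a_at was at 0.165 ± 0.129 and 1455703_at at 0.11 ± 0.15. The first passed with an intensity trend (adjusted p = 0.031) and among brighter probe sets alone (adjusted p = 0.042), in a range up to 0.911, the value for the mean of the 3 probe sets.

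Slc2a4 encodes GLUT4, the insulin-responsive transporter of fat and muscle. By 1415959_at its level was 6.09, 5.97 and 5.88 in controls and 5.69, 5.56 and 5.75 in irradiated cultures. Every irradiated culture was lower than every control, a separation that 1 of the 28 had, against 6.73% of all probe sets. The pair differences were -0.40, -0.41 and -0.13 and the estimate was -0.31 ± 0.09 (1.24-fold lower, 95% interval -0.53 to -0.09), with an unadjusted p of 0.013 and an adjusted p of 0.929 by limma. By 1415958_at the levels were 7.19, 7.08 and 6.93 in controls and 7.07, 6.49 and 6.87 in irradiated cultures. Here the arms overlapped, the pair differences were -0.12, -0.59 and -0.06, and the estimate was -0.26 ± 0.12 (95% interval -0.55 to 0.04). The estimates stayed negative in both probe sets under every limma setting, and none of these passed. With all 3 pairs negative in both, neither leaving out a replicate nor dropping the block could turn the sign.

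The fat-cell markers had the same sign as Slc2a4. Between arms 7 of the 8 measured were negative, where 8752 of all 18193 genes were, and 0 passed. The median was -0.14 (by pair -0.16, -0.13 and -0.06). Their mean level was 10.37 to 10.41 in controls and 10.21 to 10.25 in irradiated cultures. Skeletal muscle markers had 6 of 10 positive, with a median of 0.06. The part of either in the Slc2a4 values was not tested.

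Slc2a1 encodes GLUT1. By 1434773_a_at its level was 10.85, 11.42 and 11.96 in controls and 10.93, 11.49 and 11.7 in irradiated cultures. By 1426599_a_at it was 10.6, 11.22 and 11.82 in controls and 10.68, 11.33 and 11.54 in irradiated cultures, and by 1426600_at 9.06, 9.59 and 10.4 in controls and 9.15, 9.7 and 10.02 in irradiated ones. In all 3 probe sets the cultures of experiment 1 were lowest and those of experiment 3 highest. How many of all probe sets order the occasions in this way was not counted.

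Slc2a1 was higher in experiment 3 than in experiment 1 by 0.94 ± 0.12 (1.92-fold, limma adjusted p = 0.016), 1.04 ± 0.13 (2.06-fold, adjusted p = 0.014) and 1.1 ± 0.14 (2.15-fold, adjusted p = 0.018) by these probe sets in turn. The difference was larger between controls, at 1.11, 1.22 and 1.34, than between irradiated cultures, at 0.77, 0.86 and 0.87. Experiment 2 stood above experiment 1 by 0.54 to 0.635 and below experiment 3 by 0.375 to 0.565, and neither step passed (adjusted p from 0.161 to 0.296 and from 0.350 to 0.424). With an intensity trend the first step passed for 1434773_a_at and 1426599_a_at (limma adjusted p = 0.011 and 0.0095), but not in the other alternatives. Experiment took 93.7% to 95.8% of the sum of squares of these probe sets and irradiation 0.12% to 0.41%. The estimates between arms were -0.06 to -0.03, made of small positive differences in experiments 1 and 2 (0.07 to 0.11) and a negative one in experiment 3 (-0.38 to -0.26).

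The Slc2a1 calls ended with any 1 of the 6 arrays left out, a setting in which 1 residual degree of freedom remains and 0 of all 45037 probe sets passed. The Slc2a1 estimates were then 0.77 to 1.34, all positive, with adjusted p from 0.108 to 0.446, and lowest without control culture 3. The other alternatives kept all 3 probe sets past the threshold. Gapdh is also read by control probe sets at both ends of its transcript, whose difference (3′ end over 5′ end) moves with RNA quality. It was 0.23 and 0.19 for the cultures of experiment 1 but -0.05 to -0.01 for the others, while the same difference for Actb was 0.76 and 0.75 in experiment 1, 0.72 in control culture 3 and 0.61 to 0.62 in the others. Control culture 3, the highest array for all 3 Slc2a1 probe sets, Irs2, Pik3r3 and Hk2, is also the one with the brightest spike-ins. The part of these values in the Slc2a1, Insr and other differences from experiment 1 was not tested.

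Over the whole set, 4 of the 28 probe sets differed between experiments 3 and 1, 3 higher and 1 lower, where 3.05% of all probe sets did (1.87% higher and 1.18% lower). The 3 higher ones all read Slc2a1, so the 4 calls stand for 2 genes. Between experiments 2 and 1 the count was 0 of 28 against 0.52% of all (0.473% higher and 0.0466% lower), and between experiments 3 and 2 it was 0 of 28 against 0.0355%. In the test over the 3 occasions together 3 of 28 passed, all Slc2a1, against 1.53% of all.

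**Figure D3:**
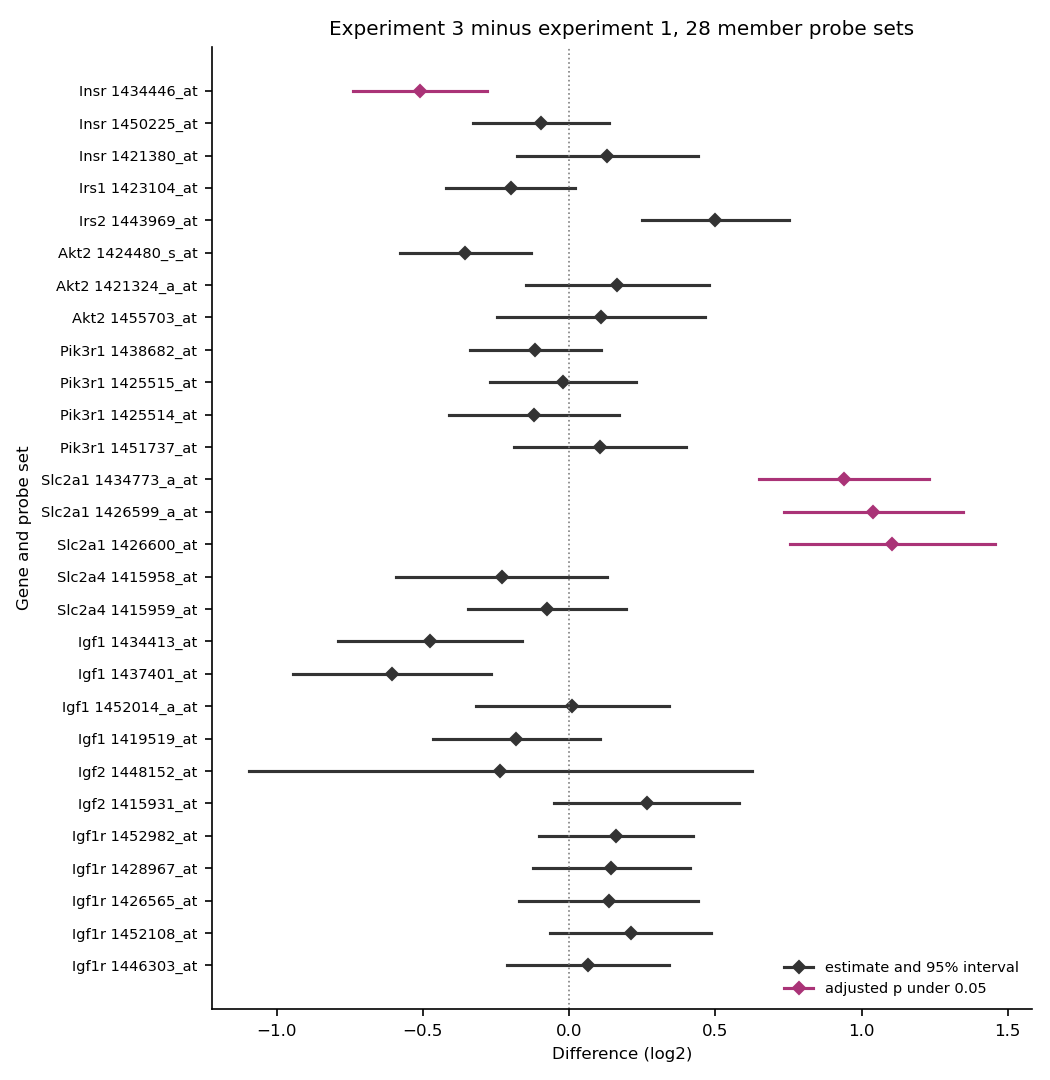
Experiment 3 minus experiment 1 difference (log2) of the 28 probe sets, with limma's estimate and 95% interval, coloured where adjusted p is under 0.05. The 3 Slc2a1 probe sets lie between 0.94 and 1.1, Insr 1434446_at at -0.51, and Irs2 at 0.5 does not pass.

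A total of 77 of 85 other genes of the pathway, listed by role, had a single-gene probe set. Of these 0 passed between arms (limma, with 5 at an unadjusted p under 0.05, against 4.14% of all genes). A total of 35 were positive and 41 negative, against 9183 and 8752 of all 18193 genes, and the median was -0.0067. Between experiments 3 and 1, 2 passed, both higher, against 3.13% of all genes. These counts take the probe set of highest mean level for each gene. Averaging a gene's probe sets made this second count 8, against 4.12% of all genes.

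Among ligands, binding proteins and clearance receptors 5 of 13 were positive and 8 negative between arms, with a median of -0.017. The binding protein Igfbp1, dim throughout, stood at 3.41, 3.53 and 3.61 in controls and 3.11, 3.16 and 3.32 in irradiated cultures (-0.32 ± 0.08, adjusted p = 0.929). Igfbp2, also dim, was at 0.36 ± 0.12. Igfbp3, which carries most circulating IGF, and Igfbp6, which prefers IGF-2, were higher in experiment 3 than in experiment 1 by 0.645 ± 0.129 and 0.575 ± 0.122 without passing (limma adjusted p = 0.061 and 0.072).

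Among the receptor relative and adaptors 7 of 10 were positive and 2 negative. Sh2b2, an adaptor also called APS that binds the activated insulin receptor, stood at 6.62, 6.57 and 6.71 in controls and 6.33, 6.11 and 6.28 in irradiated cultures. All irradiated cultures were lower than all controls (-0.39 ± 0.08, limma adjusted p = 0.929), but its other probe set was at 0.11 ± 0.1. Arms that did not overlap were seen in 6 of the 77 pathway genes and in 1147 of 18193 genes, by 1 probe set each. Sh2b2 was named here for its small unadjusted p between arms. The Ras activator Sos1 was at 0.097 ± 0.075, with its other probe sets from -0.12 to 0.14, and the orphan receptor Insrr differed little between occasions, with means of 3.86, 4.04 and 3.86.

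Among PI3K, AKT and mTOR kinases 5 of 11 were positive and 6 negative between arms. The PI3K regulatory subunit Pik3r3 stood at 8.6, 8.95 and 9.35 in controls and 8.68, 8.89 and 9.21 in irradiated cultures, and rose by 0.64 ± 0.1 from experiment 1 to experiment 3 (1.56-fold, limma adjusted p = 0.032). Pik3r1, which encodes another regulatory subunit, ran from -0.12 to 0.105 over its 4 probe sets in the same comparison. The mTORC2 subunit Rictor was at -0.42 ± 0.1 for that comparison (adjusted p = 0.104). Between arms Pik3cd was at 0.11 ± 0.08 and Mtor at -0.057 ± 0.075. The other 5 Pik3cd probe sets ran from -0.13 to 0.39 and those of Mtor were at -0.057 and 0.043.

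Among inhibitors of the pathway 7 of 11 were positive and 4 negative between arms. Socs3, which blocks insulin receptor and cytokine signals and is itself induced by them, stood at 10.13, 10.38 and 11.03 in controls and 10.26, 10.32 and 11.18 in irradiated cultures. It rose by 0.91 ± 0.1 from experiment 1 to experiment 3 (1.88-fold, limma adjusted p = 0.011), and its other probe sets gave 0.855 and 1 (adjusted p = 0.022 and 0.0088). Socs1 was at 0.485 ± 0.099 (adjusted p = 0.063). The calls for Socs3 and Pik3r3 ended when any 1 array was left out, as every other call on the arrays did. Their estimates were then 0.85 to 0.97 and 0.55 to 0.73. Between arms Trib3, an AKT-binding pseudokinase, was at -0.37 ± 0.17 and Tsc2 at -0.093 ± 0.082.

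Among targets of AKT and insulin 3 of 11 were positive and 8 negative between arms, and the median was -0.12 (by pair -0.09, -0.13 and -0.08). The translation inhibitor Eif4ebp1 was at -0.19 ± 0.08 and the transcription factor Foxo1 at -0.14 ± 0.08, and neither passed. Other probe sets of Foxo1 were at -0.27 ± 0.08, -0.1 ± 0.11 and 0.14 ± 0.08, so they did not share a sign. Between occasions Tbc1d4, also called AS160, the AKT substrate that holds GLUT4 vesicles back, was at -0.66 ± 0.12 in experiment 3 against experiment 1 (limma adjusted p = 0.053; its other probe set -0.34), and the transcription factor Foxo3 at 0.49 ± 0.12 (adjusted p = 0.099). Another, dimmer Foxo3 probe set was higher by 1.215 ± 0.185 and passed (limma adjusted p = 0.028), and the third was at 0.545 ± 0.11 (adjusted p = 0.062).

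Among genes of GLUT4 vesicle traffic 3 of 10 were positive and 7 negative between arms. Sort1, sortilin, which helps form GLUT4 vesicles, stood at 9.83, 9.55 and 9.39 in controls and 9.61, 9.44 and 9.05 in irradiated cultures. It was lower in each irradiated culture than in its own control (-0.22 ± 0.08, limma adjusted p = 0.929), with other probe sets at -0.21 and -0.32, and its difference between experiments 3 and 1 was -0.5 ± 0.1 (adjusted p = 0.064). Stxbp3, which binds the syntaxin of GLUT4 fusion, was at 0.15 ± 0.1 between arms (0.023 by its other probe set), and Aspscr1, a tether of GLUT4 vesicles, at 0.21 ± 0.1 between experiments 3 and 1.

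Among other glucose transporters and hexokinases 5 of 11 were positive and 6 negative between arms. Hexokinase 2 (Hk2), which traps glucose in insulin-sensitive cells, stood at 10.32, 10.8 and 11.24 in controls and 10.4, 10.93 and 10.9 in irradiated cultures. Its difference between experiments 3 and 1 was 0.71 ± 0.14 (limma adjusted p = 0.057), beside the Slc2a1 values of 0.94 to 1.1. The transporter Slc2a10 was at -0.17 ± 0.08 and Slc2a6 at 0.14 ± 0.08 between arms, and neither passed. The other Slc2a10 probe set was at 0.037 ± 0.151.

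**Figure D4:**
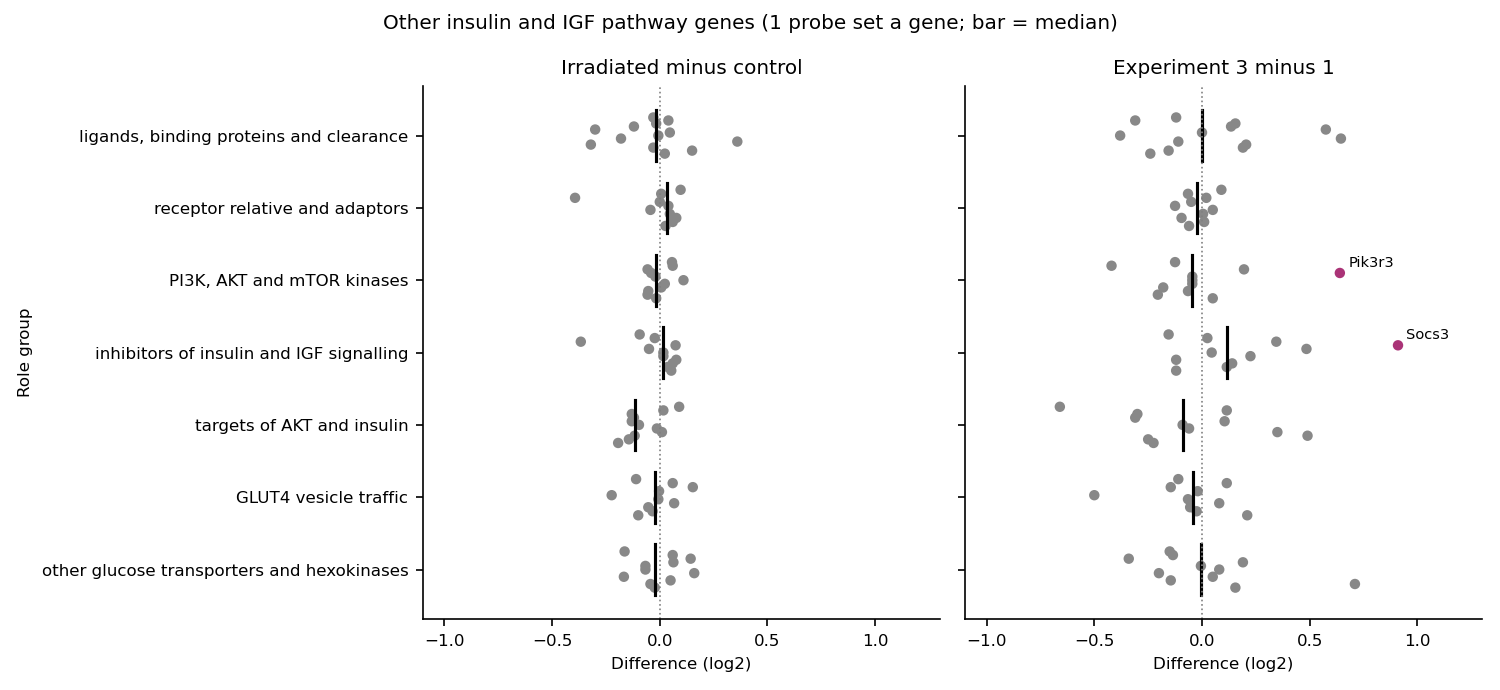
Differences (log2) of the 77 other pathway genes by role, 1 probe set a gene, for irradiated minus control (left) and experiment 3 minus 1 (right). Bars are medians of a role, and coloured points have an adjusted p under 0.05. No point passes on the left, and Pik3r3 at 0.64 and Socs3 at 0.91 pass on the right.

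The genes most like a member in pattern were sought for the 3 genes of widest range over the 6 arrays, Igf2 (1.3), Slc2a1 (1.11) and Slc2a4 (0.7), among 11730 other genes at or above the median probe set. For Slc2a1 they were Ackr3, a scavenging chemokine receptor, Ccl2, the monocyte chemokine, and Cebpb, an early transcription factor of fat-cell formation, with Pearson's r of 0.998, 0.997 and 0.997 over 6 arrays. Ccl2 stood at 8.71, 9.55 and 10.18 in controls and 8.77, 9.54 and 9.87 in irradiated cultures, so like Slc2a1 it was highest in control culture 3. For Slc2a4 they were Pgghg, Zc3h7b and Anapc10 (r of 0.992, 0.983 and 0.978), and for Igf2 Vps52, Ttc5 and Neurl4 (r of 0.984, 0.977 and 0.976). In all 6 of these genes irradiated culture 2 was the lowest array, as it was for 1415958_at of Slc2a4 and 1448152_at of Igf2, and their ranges were 0.11 to 0.61. With 6 arrays from 3 occasions and so many candidates, these values of r are descriptions only.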

How the data were processed

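The deposited values are log2 levels per probe set and array. Per the submitters' processing notes the authors used RMA, with the packages affy and limma named without versions. RMA corrects background, equalizes arrays by quantiles and summarizes probes, and log base 2 was taken from it. Scanner files were not used here. The 64 control probe sets stayed out of tests. Genes were named from the platform annotation (34945 probe sets with 1 symbol, 932 with several, 9160 unnamed).

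Tests used limma 3.58.1 in R 4.3.3 (lmFit, eBayes, two-sided, Benjamini-Hochberg over 45037 probe sets) with terms for experiment and irradiation, checked on simulated data. The pairing comes from the series design. Deviations from group means correlated within pairs with r = 0.63, 0.14 and 0.50, though irradiated culture 2 had 0.15 with control 3. The number of arrays limits precision. SEs of the 28 probe sets ran from 0.074 to 0.288.

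The members and lists were chosen with earlier results of these data known. Named pathway genes are the 2 per role with the smallest unadjusted p between arms and the 2 with the smallest over experiments. For pathway genes and lists, the probe set of highest mean stood for a gene. Genes most alike were taken by Pearson's r, 3 for each of 3 members. Alternatives are no block or a random block, no irradiation term, quantile normalization, median centring, a level filter, intensity trend, robust prior, array weights, mean of probe sets, and leaving out pairs or arrays. Promoter windows are RefSeq's.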

Additional observations from a re-analysis of the deposited data

How the results depend on the processing

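All alternatives were planned but the mean of probe sets for experiments 3 and 1, which was chosen after seeing the data. Between arms the count past the threshold stayed at 0, for the 28 probe sets and for all, in every alternative, with no replicate block or a random one included, and the median over the 10 genes ran from -0.06 to -0.025. Single values moved through 0 often, since most lie near it. Of 313 repeated values between arms 23 changed sign, and so did 17 of 331 for experiments 2 and 1, 14 of 341 for 3 and 1, and 20 of 331 for 3 and 2.

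Between arms, leaving out 1 pair gave Igf2 1448152_at a range of -0.57 to 0.165 and Igf2 1415931_at one of -0.17 to 0.045. The ranges were -0.13 to 0.09 for Insr 1421380_at, -0.105 to 0.015 for Irs2, -0.115 to 0.09 for Akt2 1421324_a_at, -0.09 to 0.03 for Pik3r1 1425515_at and -0.115 to 0.065 for Pik3r1 1451737_at. For Slc2a1 they were -0.095 to 0.075, -0.1 to 0.095 and -0.145 to 0.1. For Igf1 they were -0.015 to 0.205 by 1434413_at, -0.005 to 0.225 by 1437401_at, -0.14 to 0.09 by 1452014_a_at and -0.025 to 0.15 by 1419519_at. For Igf1r they were -0.05 to 0.09 by 1452982_at, -0.075 to 0.07 by 1428967_at and -0.04 to 0.175 by 1426565_at. Quantile normalization turned Irs1 to 0.0014, median centring Igf1r 1452982_at to -0.01, and array weights Slc2a1 1426599_a_at to 0.0063 and Igf1r 1428967_at to 0.0050.

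Between experiments 3 and 1, with 1 array left out, ranges through 0 among the 28 probe sets and the pathway genes named for their differences over experiments were -0.045 to 0.305 for Insr 1421380_at, -0.03 to 0.36 and -0.08 to 0.3 for Akt2 1421324_a_at and 1455703_at, -0.115 to 0.075 for Pik3r1 1425515_at, -0.2125 to 0.0625 for Slc2a4 1415959_at, -0.12 to 0.14 for Igf1 1452014_a_at, -0.605 to 0.135 for Igf2 1448152_at, -0.0325 to 0.3025 for Igf1r 1426565_at, -0.02 to 0.15 for Igf1r 1446303_at, -0.0575 to 0.0975 for Sh2b2 and -0.165 to 0.175 for Insrr. Quantile normalization turned Insrr to -0.0071, and the mean of probe sets turned Igf2 to 0.015. Between experiments 2 and 1 the Igf2 ranges were -1.1175 to 0.3475 by 1448152_at and -0.1125 to 0.1325 by 1415931_at.

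The count of 4 of 28 between experiments 3 and 1 was 7 among brighter probe sets (11.2% of all of these), 8 with an intensity trend (7.85% of all), 2 of 10 genes by the mean of probe sets (4.12% of all) and from 0 to 0 with 1 array left out. For experiments 2 and 1 the count of 0 became 2 with the trend, both Slc2a1, where all probe sets went from 234 to 670 (1.49%). Over all probe sets the 1374 calls between experiments 3 and 1 became 2513 among brighter ones, 3534 with the trend and 0 with 1 array left out, which leaves 1 residual degree of freedom. The causes were not tested. A total of 5 of the 28 probe sets lie below the median level, where signal over background limits them.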
